A study of Mus musculus with 12 samples.

Results

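The genes of the AMPA and NMDA receptor subunits were followed in frontal cortex of mice that carry the APP/PS1 transgenes with or without Hras. The 10 members were the genes Gria1, Gria2, Gria3 and Gria4 of the AMPA receptor and Grin1, Grin2a, Grin2b, Grin2c, Grin2d and Grin3a of the NMDA receptor, found by symbol among the 54532 genes of the deposited count table. All 10 were among the 17307 genes with enough counts to be tested. The 12 mice were 9 months old, and their poly(A) RNA was sequenced. The APP/PS1/Hras-/- group held 6 mice, 3 males and 3 females, and the APP/PS1 group held 6 mice of the same make-up. Both groups carry the APP/PS1 transgenes, a mouse model of amyloid deposition, so the groups differ by label in Hras alone, and no mice without the transgenes enter. The promoter of the transgenes, the part of Hras that was removed and the relation between the mice are not stated in the labels. Each library came from a single mouse.

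AMPA receptors are tetramers of Gria-encoded subunits that carry most of the fast excitatory current between cortical neurons. NMDA receptors are tetramers that need the Grin1 subunit, joined by Grin2 or Grin3 subunits, and they open when glutamate binds while depolarisation relieves a block by magnesium. The replacement of Grin2b by Grin2a subunits marks the maturation of cortical synapses, and the Gria2 subunit sets whether AMPA receptors let calcium through.

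The stretch of coding sequence around the pore holds the codon that sets the AMPA genes apart from the NMDA genes. It is given for 8 of the 10 members because Gria2 and Grin2a enter the composition measures that follow. In the AMPA receptor genes the capitals mark the codon of the Q/R site. In Gria2 the genome holds a glutamine codon there that RNA editing turns into an arginine codon, which closes the channel to calcium. In the NMDA receptor genes the capitals mark the asparagine codon at the matching pore position, which takes part in the block by magnesium. The sequences are the coding strand, 5′ to 3′, of GENCODE M21 transcripts on GRCm38, 45 bases each.
Gria1: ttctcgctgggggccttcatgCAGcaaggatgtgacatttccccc
Gria2: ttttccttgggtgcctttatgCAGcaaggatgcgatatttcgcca
Gria3: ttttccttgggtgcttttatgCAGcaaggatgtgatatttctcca
Gria4: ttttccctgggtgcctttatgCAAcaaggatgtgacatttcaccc
Grin1: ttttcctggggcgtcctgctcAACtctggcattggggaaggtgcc
Grin2a: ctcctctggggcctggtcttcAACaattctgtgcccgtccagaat
Grin2c: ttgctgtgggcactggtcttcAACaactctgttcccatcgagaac
Grin2d: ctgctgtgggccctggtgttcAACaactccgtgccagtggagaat
Over these 45 bases Gria2 and Gria3 differed at 3 positions and Gria1 and Gria2 at 9, whereas Grin2a and Grin2c differed at 10. The AMPA stretches all read as the same amino acids, so their base differences do not tell these subunits apart as proteins. The longest run of identical bases shared by transcripts of any pair of members was 59 bases, in Gria3 and Gria4. The capital codon is codon 607 of the Gria2 reading frame, counted from the start codon, and codon 614 of the Grin2a reading frame. Counts per gene read neither the editing of Gria2 nor the splice forms of any member. Gria2 lies at chr3:80681450-80802835 on the minus strand, Grin2a at chr16:9567898-9995560 on the minus strand and Grin1 at chr2:25291181-25319187 on the minus strand. Grin2d shares 643 bases of exon with the antisense gene Gm45441, Grin1 shares 1307 with Grin1os and Grin2b shares 49 with Gm26653. Whether the counting used strand is not stated in the labels, so reads of these members and of their antisense partners cannot be told apart with certainty. The table held 3795 counts for Grin2d and 1347 for Gm45441 over the 12 libraries. It held 118097 for Grin1 and 12 for Grin1os, and 95775 for Grin2b and 227 for Gm26653.

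Total counts ran from 13984692 to 20174131 per library. Hras itself averaged 21.3 ± 1.68 CPM (read counts relative to the total of the library after TMM scaling) in APP/PS1/Hras-/- mice and 82.7 ± 9.83 CPM in APP/PS1 mice (SD, n = 6 each), with no overlap. Its log2 difference was -1.95 (SE 0.077, edgeR adjusted p = 3.05e-09). Among 11 lists of cell type markers, the mean centred log2 CPM of excitatory neuron and mature oligodendrocyte markers was lowest in the libraries APP/PS1/Hras-/- male 1 (-0.33 and -0.54) and APP/PS1 female 2 (-0.53 and -0.59). APP/PS1 female 2 also had the highest choroid plexus score, 2.40. The excitatory cortical neuron list (10 of 10 markers at a mean of at least 1 CPM) summed to 5760 to 6411 CPM in APP/PS1/Hras-/- mice and 5176 to 6343 CPM in APP/PS1 mice. The defining markers of the labelled cortex were therefore present. In bulk tissue, fewer cells of a type and less RNA per cell cannot be told apart. The labels do not tie the mice to litters or batches, so the p-values treat the mice as independent, which could not be checked.

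Scaled to the length of the exons, Gria1 and Grin1 mRNA stood highest, at 61.1 ± 10.8 and 58.7 ± 5.64 CPM per kb over the 12 libraries (SD). Gria2, the subunit that limits calcium entry, followed at 39.5 ± 3.58 CPM per kb and Gria3 at 27.4 ± 1.37 CPM per kb. Grin2b, the subunit that predominates early in life, was at 18.5 ± 3.12 CPM per kb and Gria4, known from fast-spiking interneurons, at 18.3 ± 0.988 CPM per kb. Grin2c, known best from cerebellum and glia, was at 12.7 ± 1.62 CPM per kb and Grin2a, the mature cortical subunit, at 11.1 ± 1.28 CPM per kb. Grin3a, a subunit that lowers calcium entry through NMDA receptors, was at 3.74 ± 1.10 CPM per kb and Grin2d, known from interneurons, at 2.75 ± 0.425 CPM per kb. The genes separated at 4 steps, from Grin1 to Gria2, Gria2 to Gria3, Gria3 to Grin2b and Grin2a to Grin3a, where the upper gene was above the lower one in 12 of 12 libraries and the ranges did not overlap. Neighbouring genes did not separate between Gria1 and Grin1, where Gria1 was above in 5 of 12 libraries, or between Grin2b and Gria4, where Grin2b was above in 5. Gria4 was above Grin2c in 11 of 12 libraries, Grin2c above Grin2a in 10 of 12 libraries and Grin3a above Grin2d in 10, all with overlapping ranges. The length used moved this order, and the 4 steps are those found with all exons. By the longest annotated transcript, Gria2 averaged 59.2 ± 5.4 and Gria3 52.0 ± 2.6 CPM per kb (SD). These 2 genes therefore lay closer together by that length. With the longest annotated transcript in place of all exons, Grin1 came first at 133 CPM per kb, since the union of its exons spans 9700 bases and its longest transcript 4276. Grin3b, the remaining NMDA subunit gene, had a mean of 0.323 CPM and was too low to be tested.

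**Figure D1:**
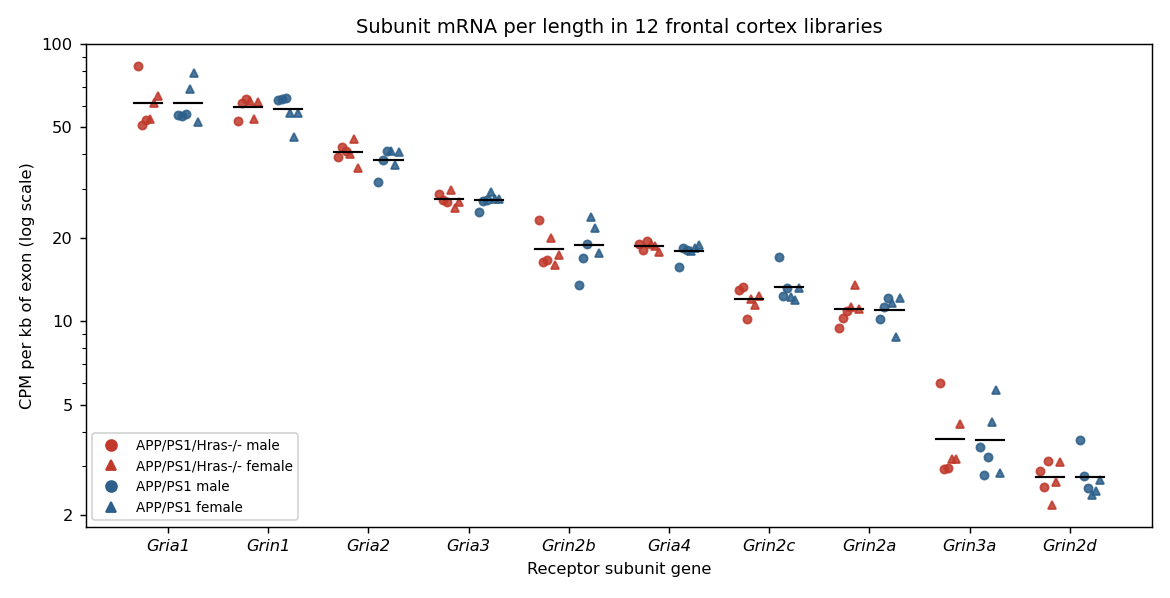
Level of each subunit mRNA in CPM per kb of exon on a log axis, by library, with APP/PS1/Hras-/- mice (red) left of APP/PS1 mice (blue), males as circles and females as triangles, and black bars for the mean of 6 mice. The genotypes overlap at every gene, and the genes span 61.1 CPM per kb for Gria1 to 2.75 CPM per kb for Grin2d.

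The study asked which transcripts differ when Hras is missing on the APP/PS1 background, and for the receptor subunits no difference passed the test. Across sexes, edgeR called 0 of 10 members at an adjusted p under 0.05, against 0.0173% of all tested genes. At an unadjusted p under 0.05 it called 0 of 10 members, against 1.68% of all genes. DESeq2 and limma-voom also called 0 members, adjusted or unadjusted. The log2 difference was above 0 for 8 members and below 0 for 2, and above 0 for 51.1% of all genes tested. Its median was 0.0092 beside 0.0024 for all genes tested. Of the values above 0, those of Gria1, Gria3, Grin1, Grin2a, Grin2d and Grin3a changed sign under some alternative settings, as given below. The genotype groups overlapped at all 10 members. Random labels would separate 6 mice from 6 with a probability of only 0.0022 (exact permutation), so overlap does not set the members apart. The share of all genes with overlap was not computed.

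**Figure D2:**
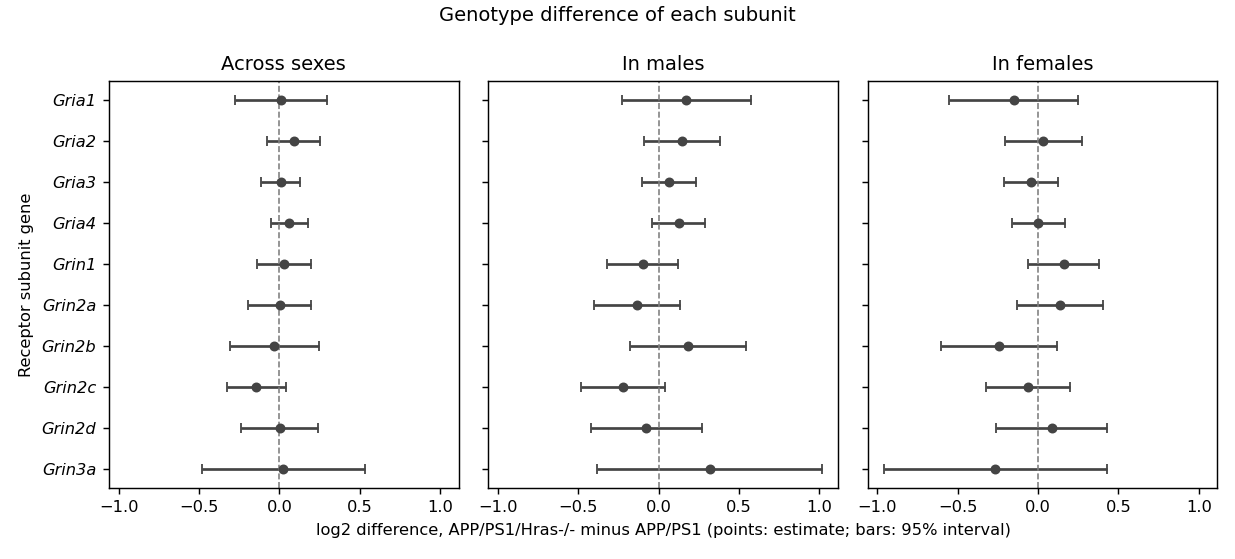
Log2 difference of each subunit (x axis, APP/PS1/Hras-/- minus APP/PS1) as point and 95% interval, across sexes, in males and in females. Every interval includes 0, and Grin3a has the widest in each of the 3 comparisons, -0.48 to 0.53 across sexes, -0.38 to 1.02 in males and -0.96 to 0.43 in females.

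Among the AMPA receptor genes, Gria2 had the largest estimate. It lay at 554 CPM (lowest), 632 CPM (median) and 709 CPM (highest) in APP/PS1/Hras-/- mice and at 493, 615 and 641 CPM in APP/PS1 mice. The single lowest value, 493 CPM, came from APP/PS1 male 1 and the highest from APP/PS1/Hras-/- female 2, and the groups overlapped. The log2 difference was 0.089 (SE 0.077, 95% interval -0.077 to 0.26), and without APP/PS1 male 1 it was 0.039. Gria4 lay at 112, 119 and 123 CPM in APP/PS1/Hras-/- mice and at 98.7, 115 and 119 CPM in APP/PS1 mice. Its log2 difference was 0.063 (SE 0.055, interval -0.054 to 0.18). Without APP/PS1 male 1, the low library of that gene too, it was 0.025. Gria3 had the lowest coefficient of variation over the 12 libraries and lay at 253 to 292 CPM in APP/PS1/Hras-/- mice and 245 to 289 CPM in APP/PS1 mice, and its interval, -0.11 to 0.13, was among the narrowest. Gria1 averaged 369.9 ± 73.1 CPM in APP/PS1/Hras-/- mice and 368.8 ± 62.9 CPM in APP/PS1 mice (SD, n = 6 each). The averages differed by far less than this spread, which was widened by 504 CPM in APP/PS1/Hras-/- male 1 and 475 CPM in APP/PS1 female 2, while the other 10 libraries lay at 309 to 416 CPM. The difference of 0.0099 (SE 0.13) was -0.13 without APP/PS1/Hras-/- male 1 and 0.088 without APP/PS1 female 2.

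Grin1, the subunit that every NMDA receptor needs, lay at 513, 597 and 616 CPM in APP/PS1/Hras-/- mice and at 447, 580 and 617 CPM in APP/PS1 mice. Its log2 difference was 0.031 (SE 0.079, interval -0.14 to 0.20). Grin2a lay at 170, 197 and 242 CPM in APP/PS1/Hras-/- mice and at 158, 206 and 218 CPM in APP/PS1 mice, with a difference of 0.00079 (SE 0.092). Grin2b lay at 396, 422 and 577 CPM in APP/PS1/Hras-/- mice and at 337, 455 and 592 CPM in APP/PS1 mice, with a difference of -0.031 (SE 0.13). For both genes the ranges of the genotypes overlapped over most of their length. Grin2c had the smallest p of the 10 members. It lay at 51.5, 61.3 and 66.8 CPM in APP/PS1/Hras-/- mice and at 60.0, 64.3 and 85.8 CPM in APP/PS1 mice, with a difference of -0.14 (SE 0.087, interval -0.33 to 0.042, edgeR adjusted p = 1). The highest of these values, 85.8 CPM, came from APP/PS1 male 1 and the lowest from APP/PS1/Hras-/- male 3, and the groups otherwise overlapped. Without APP/PS1 male 1 the difference was -0.066. Grin2d was low, at 14.5 to 20.8 CPM in APP/PS1/Hras-/- mice and 15.7 to 24.9 CPM in APP/PS1 mice, from 224 to 420 counts a library, with a difference of 0.0027 (SE 0.11).

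Grin3a varied most of the members, with a coefficient of variation of 29.3% over the 12 libraries, against 5.01% for Gria3. It lay at 36.0, 39.1 and 73.7 CPM in APP/PS1/Hras-/- mice and at 34.3, 41.5 and 69.2 CPM in APP/PS1 mice. The high value of each genotype came from the libraries that were also highest in Gria1. The difference was 0.025 (SE 0.23), and the interval, -0.48 to 0.53, includes changes of either sign. Without both libraries it was -0.061.

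Within each sex the counts were again 0. In males edgeR called 0 of 10 members, against 0.0116% of all genes, and 0 at an unadjusted p under 0.05, against 3.91%. In females it called 0 of 10, against 0.0116%, and 0 unadjusted, against 3.81%. The genotype by sex interaction gave 0 of 10 calls, against 0% of all genes, and 0 unadjusted, against 7.21%. DESeq2 and limma-voom called 0 members in these comparisons too, adjusted or unadjusted. The median difference of the members was 0.093 in males beside 0.0063 for all genes, and -0.022 in females beside 0.0021.

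Grin2b had the smallest interaction p. In males it was at 407, 412 and 577 CPM in APP/PS1/Hras-/- mice and at 337, 421 and 473 CPM in APP/PS1 mice. In females it was at 396, 433 and 498 CPM in APP/PS1/Hras-/- mice and at 437, 541 and 592 CPM in APP/PS1 mice. The log2 difference was 0.18 (SE 0.17) in males and -0.24 (SE 0.17) in females, and the interaction, female minus male, was -0.42 (SE 0.23, edgeR adjusted p = 0.676). The high male value came from APP/PS1/Hras-/- male 1, and without that library the male difference was -0.0029 and the interaction -0.24. The signs for Grin1 were the other way round. In males it was at 513, 594 and 616 CPM in APP/PS1/Hras-/- mice and at 611, 617 and 617 CPM in APP/PS1 mice. In females it was at 519, 600 and 606 CPM in APP/PS1/Hras-/- mice and at 447, 547 and 549 CPM in APP/PS1 mice. Its interaction was 0.26 (SE 0.14, edgeR adjusted p = 0.676), and 0.17 without APP/PS1 female 2. In both sexes the groups overlapped for both genes. Grin2c in males, at 51.5, 65.3 and 66.8 CPM in APP/PS1/Hras-/- mice and 62.4, 66.3 and 85.8 CPM in APP/PS1 mice, had a difference of -0.22 (SE 0.12, edgeR adjusted p = 0.945), and -0.071 without APP/PS1 male 1.

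Females and males were compared as well, with genotype in the model. edgeR called 0 of 10 members for sex, against 0.0693% of all genes, and 0 unadjusted, against 4.65%, and DESeq2 and limma-voom called 0 in both ways. The smallest p belonged to Grin2d, at 17.1 ± 2.16 CPM in females and 19.5 ± 3.09 CPM in males (SD, n = 6 each), with a log2 difference of -0.19 (SE 0.11, edgeR adjusted p = 0.989), and -0.095 without APP/PS1 male 1. Grin1 came next, at 545 ± 58.3 CPM in females and 595 ± 41.0 CPM in males, with a difference of -0.13 (SE 0.079), and -0.073 without APP/PS1 female 2. Gria3 lies on the X chromosome and averaged 274 ± 14.9 CPM in females and 267 ± 12.3 CPM in males, a difference of 0.039 (SE 0.056).

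Ratios within a library do not depend on how libraries are scaled. The levels of the shares and ratios do depend on the gene length used, here all exons. By the longest transcript, Gria1 averaged 66.6 and Gria2 59.2 CPM per kb, against 61.1 and 39.5 by all exons. Grin1 averaged 133 against 58.7 CPM per kb. Of the summed length-scaled AMPA mRNA, Gria1 made up 41.0 ± 4.84% in APP/PS1/Hras-/- mice and 42.0 ± 4.09% in APP/PS1 mice. Gria2 made up 27.6 ± 3.10% in APP/PS1/Hras-/- mice and 26.6 ± 2.48% in APP/PS1 mice (SD, n = 6 each). The Gria2 shares ran from 23.1% to 30.6% in APP/PS1/Hras-/- mice and from 22.7% to 29.2% in APP/PS1 mice, so that the lowest share of each genotype belonged to the 2 libraries named above. The difference of 1.08 percentage points gave p = 0.507 in a two-sided exact permutation test. It was 1.99 without APP/PS1/Hras-/- male 1, 0.309 without APP/PS1 female 2 and 1.22 without both. Of the NMDA mRNA, Grin1 made up 55.3 ± 3.52% in APP/PS1/Hras-/- mice and 53.8 ± 3.90% in APP/PS1 mice, and Grin2b made up 17.0 ± 2.45% in APP/PS1/Hras-/- mice and 17.5 ± 3.86% in APP/PS1 mice. Grin2c made up 11.3 ± 1.03% in APP/PS1/Hras-/- mice and 12.4 ± 1.58% in APP/PS1 mice, and Grin2a 10.4 ± 1.60% in APP/PS1/Hras-/- mice and 10.2 ± 0.950% in APP/PS1 mice. The differences in these shares were smaller than the SD between mice in both genotypes for Grin1, Grin2b and Grin2a.

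The log2 ratio of Grin2a to Grin2b, which marks the switch between these subunits, was -0.72 ± 0.34 in APP/PS1/Hras-/- mice and -0.75 ± 0.34 in APP/PS1 mice (SD, n = 6 each, two-sided exact permutation p = 0.851). In males the values were -1.30, -0.68 and -0.61 in APP/PS1/Hras-/- mice and -0.65, -0.59 and -0.42 in APP/PS1 mice. In females they were -0.83, -0.65 and -0.24 in APP/PS1/Hras-/- mice and -1.31, -1.03 and -0.53 in APP/PS1 mice. The groups overlapped in both sexes. The difference was -0.31 in males (exact permutation p = 0.2) and 0.38 in females (exact permutation p = 0.3), where 3 mice against 3 cannot go below p = 0.1. The male difference was -0.091 without APP/PS1/Hras-/- male 1, and without APP/PS1 female 2 the female difference was 0.21. A test of the difference between the sexes, added after the values were seen, gave 0.69 with all 12 libraries (p = 0.1, exact permutation of sex labels within each genotype over 400 arrangements). Such shuffling assumes no effect of sex in either genotype, so an effect of sex alone would also enter its spread.

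The log2 ratio of summed AMPA to summed NMDA subunit mRNA was 0.47 ± 0.13 in APP/PS1/Hras-/- mice and 0.42 ± 0.19 in APP/PS1 mice (SD, n = 6 each, two-sided exact permutation p = 0.634). In males it was 0.38, 0.39 and 0.67 in APP/PS1/Hras-/- mice and 0.20, 0.33 and 0.34 in APP/PS1 mice. These male groups did not overlap, and the exact permutation test gave p = 0.1, the smallest that 3 against 3 allows. The male groups did not overlap in RNA integrity number either, as given below, so RNA integrity and genotype cannot be told apart here. Without APP/PS1/Hras-/- male 1, the male library with the highest ratio, the difference of 0.19 became 0.099. In females it was 0.36, 0.40 and 0.59 in APP/PS1/Hras-/- mice and 0.41, 0.51 and 0.74 in APP/PS1 mice, with overlap and a difference of -0.10 (exact permutation p = 0.5), which was -0.0084 without APP/PS1 female 2. The difference between the sexes, -0.29, gave p = 0.12 in the same kind of permutation of sex labels. With p-values adjusted over the 12 composition tests, the smallest was 0.48.

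**Figure D3:**
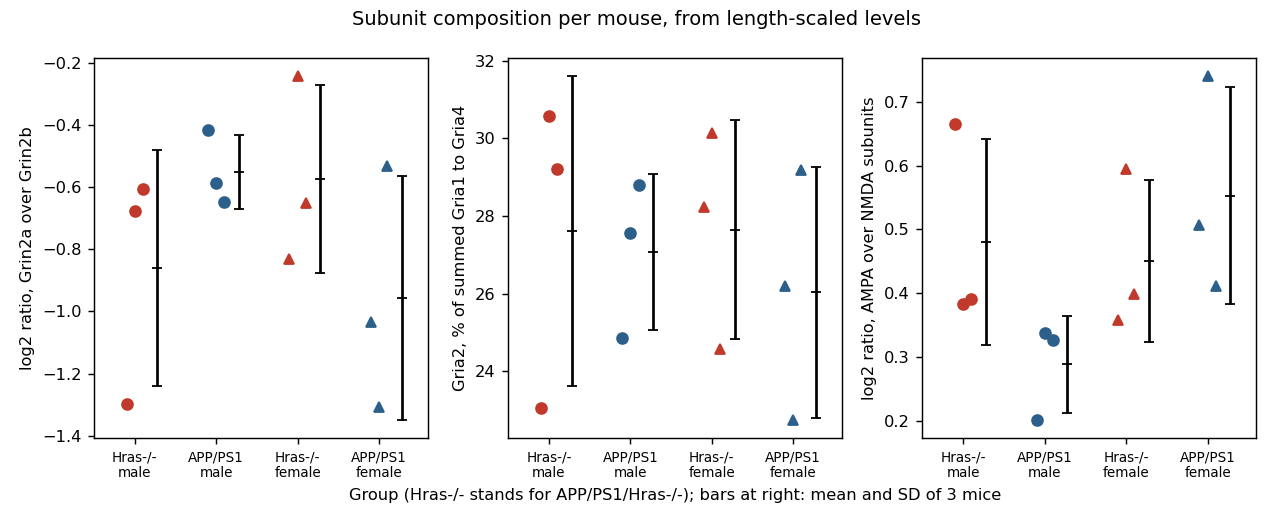
Log2 ratio of Grin2a to Grin2b, Gria2 share of summed AMPA subunit mRNA in percent, and log2 ratio of summed AMPA to NMDA subunit mRNA, per mouse and group, with the mean and SD of 3 mice beside the points. The only pair of groups without overlap is the AMPA to NMDA ratio in males, 0.38 to 0.67 in APP/PS1/Hras-/- mice and 0.20 to 0.34 in APP/PS1 mice.

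The members did not vary as a block over the 12 libraries. Of 45 pairs, 2 had a correlation of log2 CPM that passed adjustment over the 45, and they joined AMPA with NMDA subunits. Gria1 and Grin3a had r = 0.963 and rho = 0.895 (permutation tests, adjusted p = 0.0027 and 0.0113). Without the 2 libraries farthest from the median of Gria1, which are APP/PS1/Hras-/- male 1 and APP/PS1 female 2, r was 0.876, and as deviations from the means of the 4 groups r was 0.958. Gria3 and Grin2b had r = 0.858 and rho = 0.867 (permutation tests, adjusted p = 0.00833 and 0.0115), with r = 0.854 without the 2 libraries farthest in Gria3 and r = 0.819 as deviations from group means. Gria1 and Grin1 ran against each other with r = -0.761, rho = -0.517 and adjusted permutation p = 0.0609 for r, and r was -0.439 without the 2 libraries farthest in Gria1. Gria4 and Grin2c had r = -0.837 and rho = -0.476 (adjusted permutation p = 0.0609 for r), but r was -0.046 without the 2 libraries farthest in Gria4, so the relation rests on those samples. Gria2 and Gria1, which form most of the AMPA mRNA together, had r = -0.149.

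**Figure D4:**
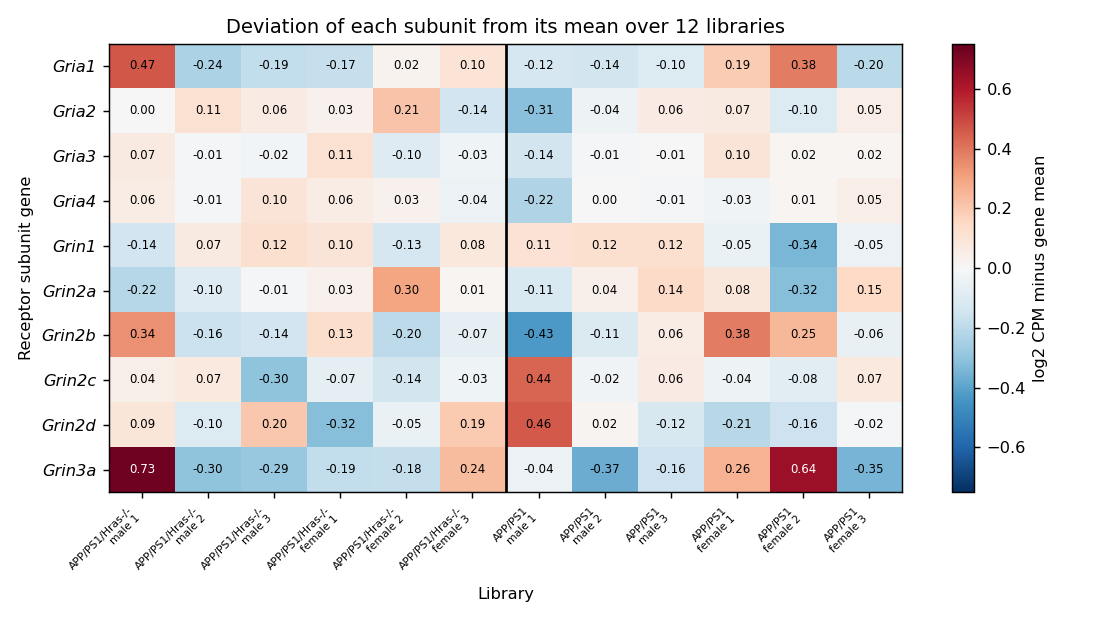
Deviation of each subunit from its own mean over the 12 libraries (log2 CPM, colour and printed value), with the 6 APP/PS1/Hras-/- libraries left of the 6 APP/PS1 libraries. Grin3a and Gria1 are highest in APP/PS1/Hras-/- male 1 (0.73 and 0.47) and APP/PS1 female 2 (0.64 and 0.38), and APP/PS1 male 1 is low in Gria2, Gria4 and Grin2b and high in Grin2c and Grin2d.

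The levels of Gria1, Grin1 and Grin3a moved with markers of cell types across libraries, and no other member had a relation that passed adjustment. The share of all genes related as closely to these lists was not computed. The part of cell composition in the values above was not tested. Of 110 pairs of a member and a marker list, 7 passed adjustment over the 110 by r, and 3 of these by rho as well. By rho alone, 1 more passed, Grin1 with the oligodendrocyte precursor list (rho = -0.846, r = -0.731, adjusted permutation p = 0.0389 and 0.0607), with r = -0.690 without the 2 libraries farthest in that list. Grin1 went with the GABAergic interneuron list (r = 0.869, rho = 0.944, permutation tests, adjusted p = 0.00275 and 0.0022), and r was 0.824 without the 2 libraries farthest in that list. This list had 10 of 10 markers at a mean of at least 1 CPM and summed to 796 to 959 CPM in APP/PS1/Hras-/- mice and 783 to 991 CPM in APP/PS1 mice. Grin1 also went with the excitatory neuron list (r = 0.914, rho = 0.797, adjusted permutation p = 0.00275 and 0.0607), with r = 0.800 without the 2 farthest libraries, and against the leptomeningeal fibroblast list (r = -0.845, rho = -0.853, adjusted permutation p = 0.0127 and 0.0389), with r = -0.683. Grin3a went against the mature oligodendrocyte list (r = -0.910, rho = -0.832, adjusted permutation p = 0.0033 and 0.0432), with r = -0.805 without the 2 farthest libraries. That list had 8 of 8 markers at a mean of at least 1 CPM and summed to 3651 to 7641 CPM in APP/PS1/Hras-/- mice and 3454 to 6941 CPM in APP/PS1 mice. Gria1 went against the mature oligodendrocyte, excitatory neuron and interneuron lists (r = -0.838, -0.851 and -0.775, adjusted permutation p = 0.0284, 0.0308 and 0.0432), with rho = -0.776, -0.546 and -0.643 (adjusted permutation p = 0.0792, 0.374 and 0.236) and r = -0.614, -0.542 and -0.750 without the 2 farthest libraries. Grin2b and the striatal neuron list had r = 0.734, which did not pass (adjusted permutation p = 0.0721). That list, of genes that mark neurons of the striatum below the cortex, had 10 of 10 markers at a mean of at least 1 CPM and summed to 356 to 791 CPM in APP/PS1/Hras-/- mice and 263 to 1051 CPM in APP/PS1 mice.

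Composition measures went with some of the same lists. The Gria2 share of AMPA mRNA was higher in libraries with a higher mature oligodendrocyte score (r = 0.939, rho = 0.951, permutation tests, adjusted p = 0.00033 for both over 33 relations, the smallest that 100000 resamples allow). Without APP/PS1/Hras-/- male 1 and APP/PS1 female 2, which are farthest from the median of that list, r was 0.872, and as deviations from group means r was 0.942. The ratio of AMPA to NMDA mRNA was lower in libraries with a higher excitatory neuron score (r = -0.880, rho = -0.818, adjusted permutation p = 0.00297 and 0.022) and a higher interneuron score (r = -0.857, rho = -0.888, adjusted permutation p = 0.00297 and 0.00396). Without the 2 libraries farthest in each list, r was -0.716 and -0.810. The ratio of Grin2a to Grin2b went with the oligodendrocyte list (r = 0.782, rho = 0.671, adjusted permutation p = 0.0285 and 0.0956) and the excitatory neuron list (r = 0.776, rho = 0.399, adjusted permutation p = 0.0376 and 0.370). Without APP/PS1/Hras-/- male 1 and APP/PS1 female 2, r was 0.473 and 0.112, so the second relation rests on them and the first does in part. As deviations from group means, r was 0.856 and 0.678. By rho alone, the Gria2 share went against the list of thalamic and other subcortical neurons (rho = -0.804, r = -0.695, adjusted permutation p = 0.0221 and 0.0568), with r = -0.742 without the 2 farthest libraries. The ratio of AMPA to NMDA mRNA went with the oligodendrocyte precursor list (rho = 0.755, r = 0.683, adjusted permutation p = 0.0423 and 0.0568), with r = 0.588 without the 2 farthest.

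**Figure D5:**
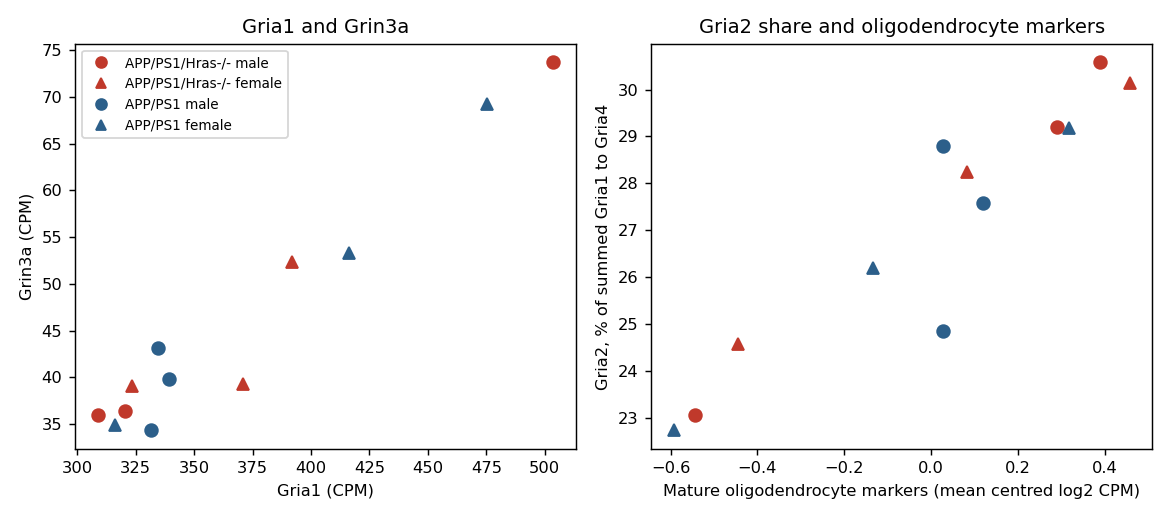
Left, Grin3a against Gria1 in CPM. Right, Gria2 as percent of summed length-scaled AMPA subunit mRNA against the mean centred log2 CPM of mature oligodendrocyte markers. Each point is a library, APP/PS1/Hras-/- mice in red and APP/PS1 mice in blue, with r = 0.963 on the left and r = 0.939 on the right, and both genotypes lie along the whole range.

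RNA integrity numbers were 8.3 to 8.7 in APP/PS1/Hras-/- mice and 7.8 to 8.6 in APP/PS1 mice. The lowest, 7.8, belonged to APP/PS1 male 1. In males they were 8.6, 8.7 and 8.7 in APP/PS1/Hras-/- mice and 7.8, 8.2 and 8.3 in APP/PS1 mice, without overlap. RNA integrity and genotype therefore cannot be told apart in the male differences. The correlation with the RNA integrity number was r = 0.812 for Gria4, 0.707 for Gria2, -0.696 for Grin2c and 0.632 for Gria3. The values of rho were 0.549, 0.520, -0.269 and 0.471. None of the 10 members passed adjustment over the 10 relations (adjusted permutation p = 0.073 for r in each of these, and 0.413 to 0.61 for rho). Without the 2 libraries farthest from the median RNA integrity number, r was 0.452, 0.248, -0.220 and 0.314, so these relations rest largely on those samples. As deviations from group means, with all 12 libraries, r was 0.779, 0.785, -0.695 and 0.623. Grin2d had r = -0.563, with -0.863 as such deviations and 0.010 without the 2 farthest libraries. The relations were added after the data had been seen. With the RNA integrity number as a covariate, the male log2 difference was -0.27 for Gria2, -0.10 for Gria4 and 0.23 for Grin2c, each of the opposite sign to the value without it, and edgeR called 0 members.

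The other genes of the pathway were taken from lists of glutamate receptor genes and their partners. Of the 50 that were tested, edgeR, DESeq2 and limma-voom called 0 in every comparison. Across sexes 0 of the 50 had an unadjusted p under 0.05 by any of these tools, against 1.68% of all genes in edgeR. In the interaction 3 had one in edgeR (Cdk5, Grip1 and Grm4), against 7.21% of all genes, and for sex 1 had one (Kif17), against 4.65%. The 6 kainate and delta receptor genes on the list had a median log2 difference of 0.061, with 5 values above 0 and 1 below. The 7 tested genes of 8 metabotropic receptors had a median of 0.013, with 5 above 0. The 26 AMPA receptor auxiliary and assembly genes had a median of -0.020, with 9 above 0 and 17 below. The 11 tested genes of 12 kainate auxiliary and NMDA partner proteins had a median of -0.0017. All genes tested had a median of 0.0024, and 51.1% of them lay above 0. Grm6 and Dao were too low to be tested.

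The genes with the smallest p of each list across sexes were Grik3 at 0.14 (SE 0.075) and Grik1 at 0.12 (SE 0.13), both kainate receptor subunits. They were Grm8 at 0.13 (SE 0.11) and Grm2 at 0.17 (SE 0.16), both presynaptic receptors that restrain release. They were also Cacng7 at 0.061 (SE 0.073) and Cacng4 at -0.15 (SE 0.19), auxiliary subunits of AMPA receptors, and Kif17, the motor that carries Grin2b in dendrites, at -0.15 (SE 0.11), and Ptk2b, a kinase upstream of Src, at 0.072 (SE 0.080). Their adjusted p was 1 in edgeR. Leaving out each library in turn gave 0.081 to 0.18 for Grik3, 0.032 (without APP/PS1/Hras-/- male 1) to 0.19 for Grik1, 0.073 to 0.19 for Grm8, 0.099 to 0.31 (without APP/PS1 male 1) for Grm2 and 0.028 to 0.11 for Cacng7. For Cacng4 it gave -0.33 (without APP/PS1/Hras-/- male 1) to -0.025 (without APP/PS1 female 2), for Kif17 -0.20 to -0.085, and for Ptk2b 0.023 (without APP/PS1/Hras-/- male 1) to 0.13. Adarb1, the enzyme that edits the Q/R site of Gria2 shown above, averaged 259 CPM and had a difference of -0.011 (SE 0.096).

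In females Grip1, a scaffold that binds Gria2, had a log2 difference of -0.33 (SE 0.15, edgeR adjusted p = 0.991). It was the 1 of 50 pathway genes under an unadjusted p of 0.05 there in edgeR, where the share of all genes was 3.81%. DESeq2 counted 3 and limma-voom 0, and the shares of all genes in these 2 tools are not given here. The 2 genes of smallest p in each list in females were Grip1 and Cacng4, the second at -0.46 (SE 0.23), Grm2 at 0.43 (SE 0.21) and Grm4 at 0.16 (SE 0.11), Grik4 at 0.20 (SE 0.13) and Grik3 at 0.14 (SE 0.11), and Ephb2, a receptor that binds NMDA receptors, at 0.33 (SE 0.19) and Cdk5, a kinase, at 0.15 (SE 0.088). Without APP/PS1 female 2, Cacng4 was at -0.27, Ephb2 at 0.15 and Grik4 at 0.079, and without APP/PS1/Hras-/- female 3, Grm4 was at 0.029 and Grik3 at 0.023. In males 0 pathway genes were under an unadjusted p of 0.05 by edgeR, DESeq2 or limma-voom, against 3.91% of all genes in edgeR. The 2 genes of smallest p in each list were Grik2 at 0.26 (SE 0.18) and Grik4 at -0.17 (SE 0.13), Grm4 at -0.23 (SE 0.11) and Grm7 at 0.16 (SE 0.084), Grip1 at 0.25 (SE 0.15) and Pick1, which binds Gria2, at -0.19 (SE 0.13), and Kif17 at -0.27 (SE 0.15) and Ptpn5, a phosphatase of Grin2b, at -0.13 (SE 0.093). In males Grik2 was at 0.019, Grik4 at -0.051 and Grip1 at 0.088 without APP/PS1/Hras-/- male 1. Without APP/PS1 male 1, Grm7 was at 0.088 and Pick1 at -0.095, without APP/PS1 male 2, Kif17 was at -0.16, and without APP/PS1/Hras-/- male 2, Ptpn5 was at -0.085. The interaction of Grip1 was -0.58 (SE 0.21, edgeR adjusted p = 0.667).

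Each member was also set beside 15358 genes averaging at least 1 CPM by Pearson r of log2 CPM over the 12 libraries, in which both genes share the library and its mix of cells, as a description without a test. Gria1 was most like Bhlhe22, a transcription factor of cortical projection neurons, with r = 0.977, then Grin3a. Grin3a was most like Dbpht2 with r = 0.990, Ptprr with r = 0.988 and Apaf1 with r = 0.988, and Gria1 stood at place 32 of its list. Grin1 was most like Clstn1, a synaptic membrane protein, with r = 0.976, then Adra1b and Mapk10 with r = 0.960 and 0.959. Gria2 was most like Iws1 with r = 0.953, Gria3 most like Jak1 with r = 0.944, and Gria4 most like Atxn1l with r = 0.961. Grin2b was most like Sorbs2 with r = 0.962, and Gria3 stood at place 105 of its list. Grin2a was most like Cwc15 with r = 0.925 and Grin2d most like Ankrd13d with r = 0.959. Grin2c was most like the ribosomal protein gene Rps20 with r = 0.927 and Clpp with r = 0.904, then the ribosomal protein gene Rpl27a with r = 0.901.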

How the data were processed

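The authors deposited counts of reads per gene and library, without normalization. RNA was extracted from frontal cortex with the Aurum kit and libraries were made with TruSeq Stranded mRNA, per the labels' protocols. Trimmomatic 0.33, FastQC 0.11.7, HISAT2 2.1.0 and featureCounts, and the builds mm10 and mm9, are named per the submitters' processing notes. For annotation, strandedness of counting and multiply mapped reads, the setting is not given in the sources used here. Gene identifiers were matched to GENCODE M21, and 37 of 54532 had no match. The filterByExpr rule kept 17307 genes. Genotype was tested in R 4.3.3 by edgeR 4.0.16 (quasi-likelihood) with TMM scaling, robust dispersions and Benjamini-Hochberg adjustment over all genes, across sexes with sex in the model, and within sexes from 4 group means. DESeq2 1.42.0, limma-voom 3.58.1, other scalings, filters and covariates and leaving out each library were alternatives. Standard errors were derived from the F statistic. Levels per length divide CPM by the union of exons. Ratios and correlations used scipy 1.17.1, with exact permutation or 100000 resamples. The members and lists were chosen with earlier results of these data known. Genes named are the members, Hras, marker genes, the 2 of each list with the smallest p in a comparison described, and for each member up to 3 genes of highest correlation. One gene of the pathway lists and the pore stretches of some members are not reported here, and the gene is outside the counts of its list. The fitting code was tested on simulated data.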

Additional observations from a re-analysis of the deposited data

Results flagged for a closer look

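Among 26 sets of 6 mice (each member and each composition measure in each genotype), 3 had a single mouse set apart from the other 5, by a gap over 0.625 of the whole range. Chance flags about 1 in 20 such sets. All 3 were the library APP/PS1 male 1 within APP/PS1 mice. It had the lowest Gria4, 98.65 CPM (gap 0.699 of the range), the highest Grin2c, 85.82 CPM (0.742), and the highest Grin2d, 24.94 CPM (0.710). Its RNA integrity number, 7.8, was the lowest of the 12 libraries. The part of RNA integrity in these values was not tested.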

How the results depend on the processing

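The alternative settings were 29 in all, and some of them applied only to the composition measures or the order of levels. No member was called in any comparison under any setting that tested members. The lowest adjusted p of a member was 0.444. Of 1180 log2 differences of members under these settings, 13 had an unadjusted p under 0.05. The share of all genes under that p in these settings is not given here, so the 13 cannot be judged against it. In the main fit that share ran from 1.68% across sexes to 7.21% in the interaction. The setting that called genes at an adjusted p under 0.1 kept the values of the main fit. Of these 1180, 84 changed sign, and the cause was not tested. No paired analysis was possible because replicate numbers follow the order of the samples and pair no mice. With 3 mice per group and sex, the intervals were widest for Gria1, Grin2b and Grin3a, and Grin2d had the fewest counts.

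With the RNA integrity number (RIN) as a covariate, the sign changed across sexes for Gria1 (-0.030), Gria3 (-0.036) and Grin3a (-0.027). In males it changed for Gria2 (-0.27), Gria3 (-0.11), Gria4 (-0.10), Grin2b (-0.24), Grin2c (0.23), Grin2d (0.67), Grm4 (0.032), Grm7 (-0.028) and Pick1 (0.13), and in females for Grin2d (-0.096). In the interaction it changed for Gria2 (0.41), Gria3 (0.11), Gria4 (0.16), Grin2b (0.096), Grin2c (-0.40) and Grin2d (-0.76). Grin2d in males then had the lowest edgeR p of any member and setting, 0.00771 unadjusted. In males this number did not overlap between the genotypes, so its part and that of genotype cannot be told apart there.

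Without APP/PS1/Hras-/- male 1 and APP/PS1 female 2, the sign changed across sexes for Gria1 (-0.052), Gria3 (-0.011), Grin2a (-0.037), Grin2d (-0.0087) and Grin3a (-0.061), in males for Gria1 (-0.088), Grin2b (-0.00048) and Grin3a (-0.11), in females for Gria2 (-0.018) and the Gria2 share (-0.042 percentage points), and in the interaction for Gria1 (0.072) and Grin3a (0.091). With the striatal marker level as a covariate it changed across sexes for Grin2a (-0.012), Grin2b (0.042) and Grin2d (-0.017). With upper quartile scaling it changed for Grin2a (-0.0039) and Grin2d (-0.0025) across sexes and Gria4 in females (-0.017). The minimum of 1 CPM in 3 libraries turned Grin2a across sexes (-0.0012) and Gria4 in females (-0.0057), and no filter turned the same pair (-0.0010 and -0.00032). Females alone turned Gria4 (-0.0026), limma-voom turned Gria1 across sexes (-0.00098), and a model without sex turned Grin2d across sexes (-0.00072).

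Leaving out each library in turn gave these ranges where a sign changed. Across sexes they were -0.13 (without APP/PS1/Hras-/- male 1) to 0.088 (without APP/PS1 female 2) for Gria1, -0.017 to 0.035 for Gria3, -0.025 to 0.079 for Grin1, -0.073 to 0.046 for Grin2a, -0.14 to 0.035 for Grin2b, -0.067 to 0.097 for Grin2d and -0.20 to 0.17 for Grin3a. In males they were -0.091 to 0.30 for Gria1, -0.0029 to 0.30 for Grin2b and -0.11 to 0.49 for Grin3a, each lowest without APP/PS1/Hras-/- male 1, and -0.18 to 0.11 for Grin2d, highest without APP/PS1 male 1. In females they were -0.061 to 0.12 for Gria2, -0.017 to 0.031 for Gria4 and -0.054 to 0.21 for Grin2d. The interaction of Grin2d ran from -0.028 to 0.28. For sex they were -0.011 to 0.083 for Gria2, -0.011 to 0.046 for Gria4 and -0.0099 to 0.36 for Grin3a. The log2 ratio of Grin2a to Grin2b differed by -0.074 to 0.15, and the Gria2 share by -0.94 to 2.81 percentage points in males and -0.042 to 3.19 in females.

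All genes called were 7 with DESeq2 and 5 without a filter across sexes, against 3, 4 with DESeq2 in males, against 2, and 5 with DESeq2 and 4 without a filter in females, against 2. For sex DESeq2 called 27, against 12, and leaving out each library gave 9 to 20. By the longest transcript, 4 of the 10 members kept their place in the order of levels per length.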
